A study of Mus musculus with 24 samples.

Results

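Intestinal epithelial cells release chemokines and cytokines that draw immune cells to the gut wall, and 10 genes for such factors were followed here: Cxcl1, Cxcl2, Cxcl5, Cxcl10, Cxcl16, Ccl20, Ccl25, Ccl28, Cx3cl1 and Il18. They were listed by name, with earlier results of these data known, and matched to the Ensembl identifiers of both count tables, where all 10 were found among 45706 genes. RNA was sequenced from 24 libraries of organoids, epithelial mini-guts kept in matrix gel, which were raised from either small intestinal (SI) or colonic (COL) crypts of C57BL/6N mice. The question asked was how each gene differed between SI and COL organoids, and how it changed when an oncogene, a mutant p53 or both were switched on.

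All organoids carried Villin::CreERT2, a tamoxifen-regulated Cre recombinase under an epithelial promoter. BRAF organoids were BraffloxV600E/+;Villin::CreERT2 and express the constitutively active kinase BRAFV600E after recombination. Organoids called p53 were Trp53LSL-R172H/+;Villin::CreERT2 and express p53R172H, a dominant-negative mutant of the tumour suppressor, and BRAFp53 organoids carried both alleles. Non-induced organoids (off) received ethanol and induced ones (on) 4-hydroxytamoxifen (4-HT) for 24 h, at 0.5 µM for SI and 3.5 µM for COL, and RNA was isolated on day 8 from SI and on day 3 from COL organoids. Each of the 12 groups had 2 libraries. The methods name 1 donor mouse per genotype and cultures induced in duplicate, so p-values of on against off rest on the variation between handled dishes rather than between mice, and a difference between genotypes is also one between cultures. Colonic crypts also received Wnt3a and a GSK3 inhibitor in their medium, by the methods. Dose, day and medium differed along with the tissue and cannot be told apart from it. The ages of the mice were not stated.

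Chemokines are small secreted proteins that guide leukocytes along a gradient by binding receptors on their surface. Inflammatory chemokines are low at rest and rise within hours of NF-kB, MAP kinase or interferon signalling, while homeostatic ones are made steadily by particular tissues and set where lymphocytes settle. Cxcl1, Cxcl2 and Cxcl5 attract neutrophils through Cxcr2, and Cxcl10 attracts T cells through Cxcr3. Cxcl16 and Cx3cl1 are unusual in being made as membrane proteins that can be shed; their receptors are Cxcr6 and Cx3cr1. Ccl20 recruits Ccr6-bearing B cells, T cells and dendritic cells, Ccl25 brings Ccr9-bearing T cells to the small intestine, and Ccl28 recruits Ccr10-bearing plasma cells to mucosae. Il18 is a cytokine of the interleukin-1 family that epithelium stores as a precursor and that inflammasomes mature by cleavage.

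By GENCODE M21 on GRCm38, all 10 genes are protein coding. Chromosome 5 holds 4 of them, Cxcl5 at chr5:90759360-90761624, Cxcl1 at chr5:90891241-90893115 and Cxcl2 at chr5:90903871-90905938 on the plus strand and Cxcl10 at chr5:92346638-92348889 on the minus strand. Cxcl16 lies at chr11:70453983-70459984 on the minus strand. The others are on plus strands, with Ccl20 at chr1:83116766-83119167, Ccl25 at chr8:4325210-4360020, Cx3cl1 at chr8:94772009-94782427, Il18 at chr9:50554827-50581840 and Ccl28 at chr13:119623819-119654359. Whether reads were counted by strand was not stated. Exons of Cxcl10, Cxcl16 and Ccl25 share 133, 552 and 204 bases with Art3, Zmynd15 and Elavl1 on the other strand, which were at up to 0.182, 1.28 and 95.1 CPM (counts per 1e6 counts), so reads in the shared bases could belong to either gene.

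The stretch before the start of 4 members is shown because their upstream letters held matches to motifs of the NF-kB, AP-1 and interferon pathways. Each line gives the bases from 220 to 51 before the RefSeq start, read on the strand of the gene (RefSeq, GRCm38.p6), with matches in capitals.
Cxcl1, chr5:90891025-90891194, plus strand: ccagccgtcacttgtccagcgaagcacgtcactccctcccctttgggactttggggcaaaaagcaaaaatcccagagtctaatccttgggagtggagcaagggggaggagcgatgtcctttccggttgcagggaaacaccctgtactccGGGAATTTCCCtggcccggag
Cxcl2, chr5:90903679-90903848, plus strand: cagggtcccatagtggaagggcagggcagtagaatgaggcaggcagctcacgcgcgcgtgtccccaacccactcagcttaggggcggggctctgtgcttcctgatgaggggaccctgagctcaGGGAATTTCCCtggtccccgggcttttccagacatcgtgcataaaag
Cxcl10, chr5:92348940-92349109, minus strand: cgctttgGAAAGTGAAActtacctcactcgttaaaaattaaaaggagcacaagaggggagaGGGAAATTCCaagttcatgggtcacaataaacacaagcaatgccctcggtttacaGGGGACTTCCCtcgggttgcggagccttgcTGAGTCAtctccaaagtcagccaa
Ccl20, chr1:83116546-83116715, plus strand: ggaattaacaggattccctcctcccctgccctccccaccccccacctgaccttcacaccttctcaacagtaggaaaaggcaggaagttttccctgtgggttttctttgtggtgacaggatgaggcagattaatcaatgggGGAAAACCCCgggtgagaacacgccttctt
Both strands of the 250 bases before each start were searched for the kappa-B motif, for the AP-1 motif TGANTCA, for the interferon-stimulated response element and for TATAAA. A kappa-B match stood 71 to 61 bases before the start of Cxcl1, 97 to 87 before that of Cxcl2 and 80 to 71 before that of Ccl20. Cxcl10 held 2 separate kappa-B matches, at 159 to 150 and at 104 to 94 bases, an AP-1 match at 74 to 68 and a response element match at 213 to 204. Among 32851 windows of the same length, 7.25% held a kappa-B match, 6.75% an AP-1 match, 2.98% a response element match and 12.4% TATAAA. Windows for Ccl28 held none of the letters searched, those of Cx3cl1, Il18 and 1 of 2 Ccl25 starts held TATAAA, and Cxcl5 and Cxcl16 were not searched. A match is a description of these letters and not evidence of binding.

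COL libraries held 51174821 to 78175143 counts and SI libraries 44350747 to 68214835. Levels are given as CPM after TMM scaling over all 24 libraries, and 3 counts, taken as the limit of detection, equalled 0.0368 to 0.0878 CPM. Limits and intervals cover counting error only. Epcam, keratins and the other epithelial markers summed to 9706 to 29840 CPM in every library, while the T cell and macrophage markers Cd3e and Adgre1 did not pass 0.0572 CPM; other immune markers did, and their sums are given beside the marker lists. The lactase gene Lct was at 3.20 CPM or more in all SI and at 0.265 or less in all COL libraries, and the colonic Car1 at 1330 or more in COL and 0.267 or less in SI libraries. A few libraries stood apart from their labels or groups. Gata4, a factor of the proximal small intestine, was at 32.1 to 49.4 CPM in the COL BRAF libraries against 0.293 to 2.67 in the other COL and 80.1 to 119 in the SI libraries. Xist, transcribed from the inactive X chromosome, was at 17.1 CPM in SI BRAF on replicate 1, at 0.234 to 0.471 in the other SI BRAF libraries, at 115 to 166 in the remaining SI libraries and at no more than 0.0395 in COL. Onecut2, an intestinal transcription factor, was at 6.09 to 22.9 CPM in all 4 SI BRAF libraries, against 126 to 209 in the other SI and 34.1 to 79.9 in the COL libraries. Member results that rest on SI BRAF on replicate 1 are therefore also given without it. The Y-linked Uty was at 13.9 to 27.7 CPM in all COL libraries and at 10.9 to 13.8 in SI BRAF, and did not pass 0.0325 in SI p53 and SI BRAFp53. SI and COL cultures of p53 and of BRAFp53 thus differed in the sex of their cells, which does not match 1 donor for both tissues, and SI BRAF differed in this from the other SI cultures. There sex cannot be told apart from tissue or genotype.

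In off organoids, SI and COL differed most in Ccl25, which was 13.8-fold higher in SI, and in Cxcl16 and the neutrophil-attracting Cxcl2 and Cxcl5, which were lower in SI. With the 2 off libraries of a culture summed and 3 cultures compared with 3 by edgeR's quasi-likelihood test, adjusted over all genes, 6 of 10 members passed the threshold of 0.05, 1 higher and 5 lower in SI. Of all 17789 genes tested, 29.6% were called, 12.6% higher and 17.0% lower in SI.

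Ccl25 stood at 165, 26.9 and 47.4 CPM in the off COL organoids of the BRAF, p53 and BRAFp53 cultures and at 975, 1222 and 1182 in SI. Every SI culture was above every COL culture, and the log2 difference was 3.79 (SE 0.68, adjusted p = 0.00801, edgeR). The highest COL level belonged to the culture in which Gata4 was also high, and without that culture the log2 difference was 4.91 (adjusted p = 0.000856) and the same 6 members were called. In such bulk RNA, fewer cells that make a transcript and less of it per cell cannot be told apart. Cxcl16 was at 20.3, 50.1 and 34.1 CPM in off COL and at 4.44, 2.75 and 4.34 in off SI organoids. Again the tissues did not overlap, with a log2 difference of -3.21 (SE 0.38, adjusted p = 0.00253, edgeR).

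Cxcl2 gave 346 counts in the 6 off COL libraries and 2 counts in the 6 off SI libraries, a ratio per library total of 159 (95% exact counting interval 43.7 to 1320, adjusted p = 0.00445, edgeR). Cxcl5 gave 1906 and 9 counts, a ratio of 195 (102 to 426, adjusted p = 0.0143). Both neutrophil chemokines were thus near the limit of detection in SI, where no more than 8 counts were found in an off library. Off levels of Cxcl1 averaged 2.27 ± 2.23 CPM (SD, n = 3 cultures) in COL and 0.338 ± 0.0371 in SI, a log2 difference of -2.74 (SE 0.78, adjusted p = 0.0368, edgeR). Off levels of Cxcl10 were 1.23 ± 1.0 and 0.163 ± 0.0305 CPM, a log2 difference of -2.90 (SE 0.68, adjusted p = 0.0200, edgeR). Cultures of the same tissue differed widely in these genes, Cxcl5 from 0.275 to 7.52 CPM in off COL. Some calls were lost when 1 culture was left out. Cxcl1 was no longer called without the COL BRAFp53, COL p53, SI BRAF, SI BRAFp53 or SI p53 culture (log2 difference -2.97, -1.53, -2.7, -2.72 and -2.79, adjusted p = 0.0636, 0.0757, 0.0905, 0.109 and 0.109, edgeR). Its log2 difference moved most without COL p53. Cxcl10 was not called without SI BRAF, SI BRAFp53 or SI p53 (0.0572, 0.0653 and 0.0711), nor Cxcl5 without SI p53 (0.0574). By limma-voom none of Cxcl1, Cxcl5 and Cxcl10 was called (adjusted p = 0.119, 0.109 and 0.0575).

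The other 4 members were not called between the tissues. Ccl28 averaged 40.1 ± 10.3 CPM in COL and 39.9 ± 9.74 in SI, and Cx3cl1 33.2 ± 6.43 and 34.5 ± 1.95. Ccl20 was at 1.95 ± 1.5 and 3.48 ± 2.48 CPM, with overlapping cultures. Il18 was at 20.2, 28.0 and 11.7 CPM in off COL and 31.1, 45.1 and 61.6 in off SI organoids, so that the tissues did not overlap, but its adjusted p was 0.0526 (log2 difference 1.16, SE 0.37, edgeR). It was 0.0103 by DESeq2 and 0.0446 by limma-voom. With edgeR it was 0.0395 without a count filter and 0.0465 with at least 10 counts in every library. Without the SI BRAF culture, which stood apart in Onecut2, Il18 was called (1.39, adjusted p = 0.0386), and Ccl25, Cxcl16, Cxcl2 and Cxcl5 still were.

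Levels of different genes were compared per kb of exon. In off SI organoids Ccl25 led with 151 ± 17.8 CPM per kb (SD, n = 3 cultures), followed by Il18 with 44.5 ± 14.8, and neither range over cultures overlapped with the next. Cx3cl1 (8.79 ± 0.50) and Ccl28 (8.23 ± 2.01) overlapped with each other, as did Ccl20 (2.45 ± 1.75) and Cxcl16 (1.27 ± 0.31), and Cxcl1 and the rest were at 0.180 or less. Off COL organoids had Il18 first with 19.4 ± 7.9 CPM per kb, but it overlapped with Cxcl16 (11.5 ± 4.94), and each gene down to Ccl28 (8.28 ± 2.13) overlapped with its neighbour; a gap followed before Cxcl5 (2.31 ± 1.98). Counted over its longest transcript instead of all annotated exons, Ccl25 reached 442 CPM per kb in off SI and 31.3 in off COL organoids, where its mean was above that of Il18 at 22.6 and Cxcl16 at 12.9. That order rested on the COL BRAF culture, with Ccl25 at 64.9, 10.5 and 18.6 CPM per kb in off COL BRAF, p53 and BRAFp53, against 22.8, 31.7 and 13.3 for Il18, and the ranges overlapped.

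**Figure D1:**
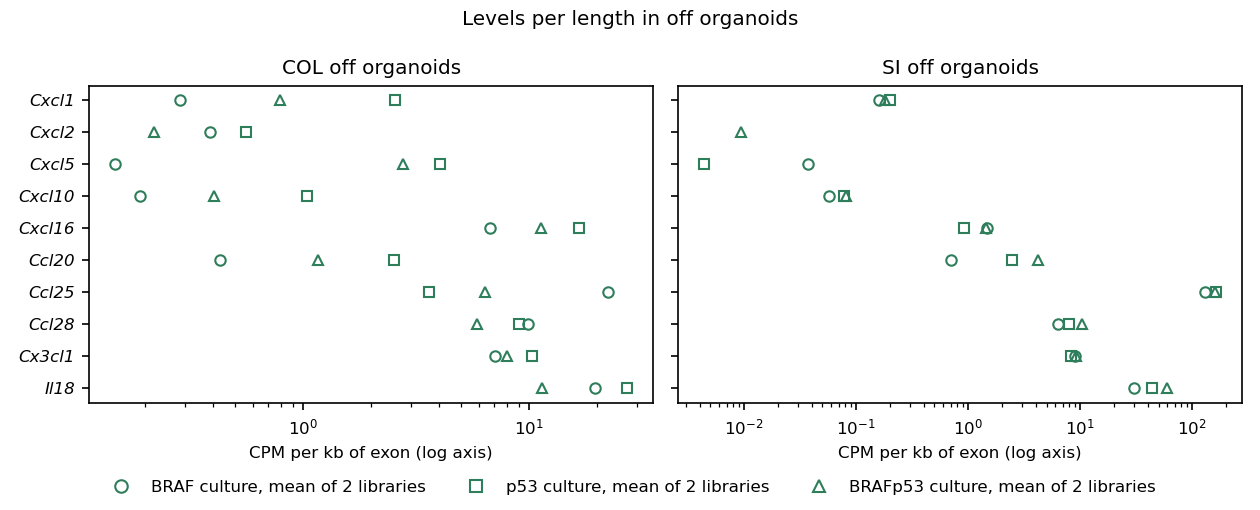
Levels of the 10 genes per kb of exon in off organoids on a log axis, COL left and SI right, with different ranges of the axis; each point is the mean of 2 libraries of a culture, and cultures at 0 counts (SI for Cxcl2 and Cxcl5) are not drawn. In SI, Ccl25 stood between 131 and 164 CPM per kb, and in COL between 3.61 and 22.2, a range that overlapped with those of Il18, Cxcl16, Cx3cl1 and Ccl28.

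On against off was tested within each tissue in 1 fit of its 12 libraries, and a gene is called where the edgeR p, adjusted over all genes, was under 0.05. In COL BRAF organoids 7 of 10 members were called (Cxcl1, Cxcl5, Cxcl10, Cxcl16 and Il18 higher, Ccl25 and Ccl28 lower), where 19.9% of all genes were, 10.3% higher and 9.61% lower. In COL BRAFp53 organoids 6 of 10 were called (Cxcl1, Cxcl2, Cxcl10 and Cxcl16 higher, Ccl25 and Ccl28 lower) against 17.7% of genes, 9.95% higher and 7.76% lower. In SI organoids Cxcl2 and Cxcl5 were too low to be tested. Of the remaining 8, SI BRAF called 5 (Cxcl16, Ccl20, Cx3cl1 and Il18 higher, Ccl28 lower) against 31.7% of genes, 17.5% higher and 14.2% lower. SI BRAFp53 also called 5 (the same 4 higher, Ccl25 lower) against 11.5%, 6.98% higher and 4.53% lower. Without on replicate 1, which stood apart in Xist, the log2 fold changes of the 5 members called in SI BRAF kept their direction. They were 3.83 for Cxcl16, 2.47 for Ccl20, 1.5 for Cx3cl1, 2.04 for Il18 and -1.82 for Ccl28. The sum of 12 immune cell markers was 7.96 to 8.27 CPM off and 20.0 to 29.3 on in SI BRAF, and 3.93 to 6.51 off and 15.5 to 18.0 on in SI BRAFp53, the cultures in which Cxcl16, Ccl20, Cx3cl1 and Il18 rose, and its part in their changes was not tested. Cxcl16 was the only one of the 10 genes called in all 4 comparisons with BRAFV600E. On and off libraries did not overlap for 10 members in COL BRAF, 8 in COL p53, 7 in COL BRAFp53 and, of the 8 tested in SI, 6 in BRAF, 1 in p53 and 6 in BRAFp53. Over all genes the shares without overlap were 60%, 39.2% and 56.8% in COL and 62.7%, 35.3% and 54.0% in SI, so a lack of overlap between pairs of libraries was common.

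Induction of p53R172H alone called no member. In COL p53 organoids edgeR called 0.142% of genes and none of the 10, while 4 members (Cxcl16, Ccl25, Ccl28 and Il18) had an unadjusted p under 0.05; DESeq2 called Ccl25, Ccl28 and Il18 among 333 genes (2.13%) and limma-voom 37 genes and none of the 10. In SI p53 organoids edgeR called 0% of genes, where 873 had an unadjusted p under 0.05, among them Il18 of the members, and DESeq2 and limma-voom called 58 genes and 1 gene, none of them a member. Over the members tested, the median log2 fold change was 0.96 in COL BRAF, 0.47 in COL p53, 0.32 in COL BRAFp53, 0.80 in SI BRAF, 0.02 in SI p53 and 0.72 in SI BRAFp53, where the medians of all genes lay between -0.06 and 0.00.

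**Figure D2:**
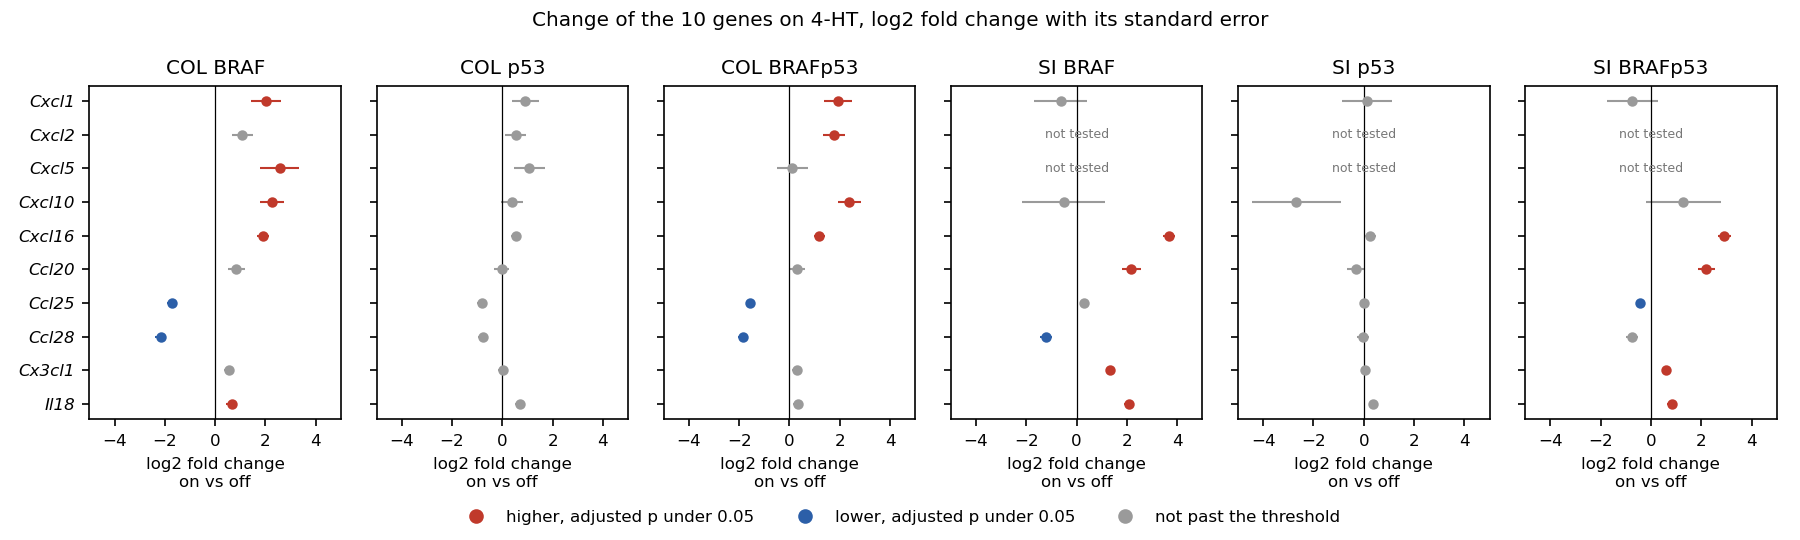
Fitted log2 fold change of on against off (x axis) for each gene in the 6 cultures, with the standard error as bars; red and blue points passed an adjusted p of 0.05 (edgeR) and grey ones did not. Ccl25 and Ccl28 lay left of 0 and Cxcl16 right of it in both COL cultures with BRAFV600E, and all points of SI p53 are grey.

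The neutrophil attractants Cxcl1, Cxcl2 and Cxcl5 rose with BRAFV600E in COL organoids, though not all of them in both cultures. In SI, Cxcl2 and Cxcl5 were near detection and Cxcl1 did not pass 0.650 CPM. Cxcl1 was at 0.476 and 0.592 CPM in the off and 2.35 and 1.98 in the on libraries of COL BRAF. Both on libraries lay above both off libraries, with a log2 fold change of 2.02 (SE 0.60, adjusted p = 0.0346, edgeR). In COL BRAFp53, Cxcl1 went from 0.412 and 2.55 CPM off to 4.73 and 6.70 on, a log2 fold change of 1.94 (SE 0.56, adjusted p = 0.0337). The 2 off libraries of that culture lay far apart, but neither reached the on libraries. The highest levels were those of COL p53, at 4.39 and 5.17 off and 8.37 and 9.82 on, where the on libraries were also above but the change was not called (log2 fold change 0.91, SE 0.54, adjusted p = 0.725). Off libraries of COL p53 thus had more Cxcl1 than on libraries of COL BRAF.

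Cxcl2 had 0.575 and 1.03 CPM off and 1.87 and 1.53 on in COL BRAF, which did not overlap but was not called (log2 fold change 1.08, SE 0.42, adjusted p = 0.0937, edgeR). In COL BRAFp53 it rose from 0.412 and 0.497 to 1.75 and 1.37 CPM, a log2 fold change of 1.78 (SE 0.43, adjusted p = 0.0144). Between BRAFp53 and BRAF, the responses of Cxcl2 differed by 0.70 (SE 0.59, adjusted p = 0.562), so the call in 1 culture and its absence in the other do not show that they differed. Cxcl5 gave 0.519 and 0.0312 CPM off and 2.40 and 0.915 on in COL BRAF, without overlap (log2 fold change 2.56, SE 0.78, adjusted p = 0.0383). One of those off libraries held only 2 counts. In COL BRAFp53, Cxcl5 was at 3.12 and 7.14 CPM off and 4.499 and 6.67 on, which overlapped, and in COL p53 it was at 5.50 and 9.54 off and 20.1 and 12.02 on (adjusted p = 0.716).

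Several calls of these low genes were lost when 1 library was left out. The log2 fold change of Cxcl1 in COL BRAF stayed between 1.85 and 2.19 in these fits. Cxcl1 in COL BRAF was not called without on replicate 1, on replicate 2, off replicate 1 or off replicate 2 (adjusted p = 0.130, 0.0765, 0.166 and 0.112), and Cxcl5 not without on replicate 1 or off replicate 2 (0.292 and 0.17). In COL BRAFp53, Cxcl1 was not called without on replicate 1 or 2 (0.0703 and 0.135), and Cxcl2 not without on replicate 1 or off replicate 1 (0.0911 and 0.0673). By limma-voom the COL BRAF calls of Cxcl1 and Cxcl5 were lost as well (0.0719 and 0.152), and 1 fit of all 24 libraries lost Cxcl1 in COL BRAF (0.0622) and COL BRAFp53 (0.0643) and Cxcl2 in COL BRAFp53 (0.0882). Other sizes moved more. Leaving out 1 library, the log2 fold change of Cxcl1 in COL BRAFp53 fell to 1.18 (off replicate 1) or reached 3.81 (off replicate 2), and that of Cxcl5 in COL BRAF ranged from 1.68 (on replicate 1) to 5.65 (off replicate 1).

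In SI organoids Cxcl1 stood between 0.0585 and 0.650 CPM, from 2 to 40 counts a library, and its on and off libraries overlapped in all 3 cultures. Cxcl2 had 0 counts in all 4 SI BRAF libraries and up to 5 elsewhere, and Cxcl5 had no counts in any of the 6 SI on libraries. A change of Cxcl2 or Cxcl5 in SI was not detectable at this depth. For Cxcl1 the log2 fold change was -0.63 (SE 1.04, adjusted p = 0.688, edgeR) in SI BRAF and -0.74 (SE 1.02, adjusted p = 0.732) in SI BRAFp53. The difference of the BRAF responses of Cxcl1 between SI and COL was -2.60 (SE 1.17, adjusted p = 0.182, edgeR). It was -4.41 (0.0983) without SI BRAF on replicate 1, its value nearest to 0 with 1 library left out was -0.87 (SI BRAF off replicate 2), and it was called without a filter on low counts (-2.62, adjusted p = 0.0081).

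Cxcl10, the interferon-inducible T cell attractant, rose in both COL cultures with BRAFV600E. Its level went from 0.266 and 0.592 CPM off to 2.85 and 1.28 on in COL BRAF, a log2 fold change of 2.27 (SE 0.48, adjusted p = 0.00599, edgeR). In COL BRAFp53 it went from 0.908 and 0.911 to 3.70 and 5.82 CPM, a log2 fold change of 2.38 (SE 0.46, adjusted p = 0.00431). On and off libraries did not overlap in either, and the 2 responses differed by 0.12 (SE 0.66, adjusted p = 0.962). COL p53 had 1.96 and 2.74 CPM off and 3.03 and 3.29 on (adjusted p = 0.903). Without COL BRAF on replicate 1 or off replicate 1 the COL BRAF call was lost (log2 fold change 1.56 and 1.78, adjusted p = 0.0704 and 0.0586), while without off replicate 2 the log2 fold change was 2.95, and 1 fit of all 24 libraries lost both calls (0.10 and 0.0814). SI libraries held 0 to 39 counts of Cxcl10, with overlap of on and off in all 3 cultures, and no call.

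**Figure D3:**
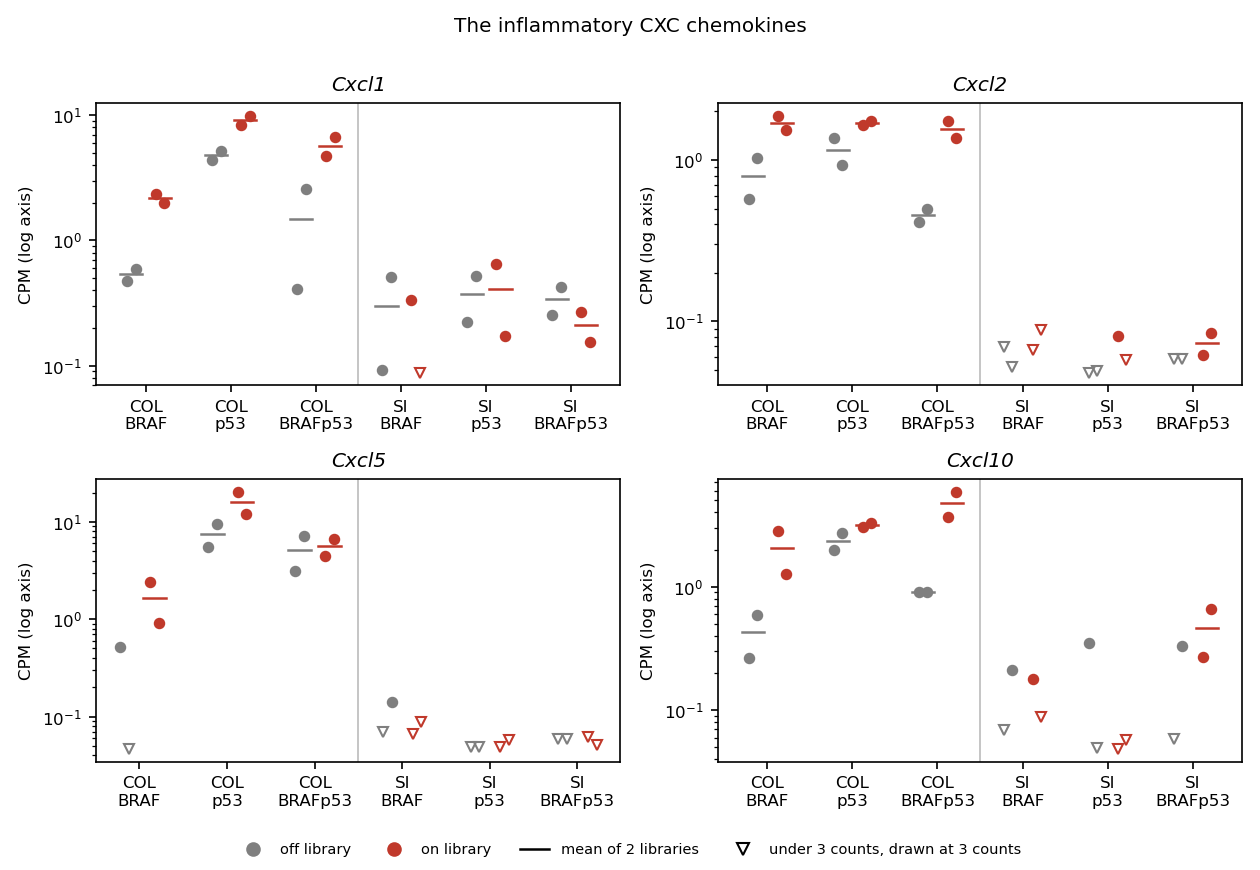
Levels of Cxcl1, Cxcl2, Cxcl5 and Cxcl10 in each library (CPM, log axis) by culture, off in grey and on in red, with the mean of 2 libraries as a line where both held at least 3 counts and open triangles, drawn at 3 counts, for libraries below that. COL libraries of each gene stood mostly above the SI libraries, and Cxcl10 in on libraries of COL BRAFp53 reached 3.70 and 5.82 CPM.

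Cxcl16, a chemokine that is also a scavenger receptor on the cell surface, had the largest rise of the members in SI organoids; in COL organoids Cxcl10 and Cxcl1, among others, had larger fitted changes. In SI BRAF it went from 4.10 and 4.78 CPM off to 52.1 and 65.0 on, a 12.7-fold rise (log2 fold change 3.67, SE 0.25, adjusted p = 3.57e-07, edgeR). SI BRAFp53 went from 5.02 and 3.66 to 33.1 and 34.4 CPM, a 7.58-fold rise (log2 fold change 2.92, SE 0.25, adjusted p = 6.87e-06). On libraries lay far above off libraries in both, and SI p53 overlapped, with 2.34 and 3.17 CPM off and 4.19 and 2.40 on. COL BRAF started higher, at 20.2 and 20.4 CPM, and reached 81.4 and 71.0 (log2 fold change 1.90, SE 0.22, adjusted p = 0.000193). COL BRAFp53 went from 30.1 and 38.1 to 82.5 and 73.0 CPM (log2 fold change 1.19, SE 0.22, adjusted p = 0.00336). COL p53 had 47.0 and 53.3 CPM off and 93.9 and 54.3 on, with 1 on library barely above the off libraries (log2 fold change 0.54, SE 0.22, adjusted p = 0.505).

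The response of Cxcl16 was larger in SI than in COL, by 1.81 log2 units in BRAF (SE 0.35, adjusted p = 0.00207, edgeR), where 10.7% of genes differed between the tissues, and by 1.77 in BRAFp53 (SE 0.35, adjusted p = 0.00805), where 3.52% did. The latter call was lost without SI BRAFp53 off replicate 2 (1.49, adjusted p = 0.0544). Per kb, the on means of 2 libraries in COL were 24.5 to 25.7 CPM per kb in the 3 cultures, although the COL p53 on libraries were 31.1 and 18.0 on their own, and in SI the on means ranged from 1.09 (p53) to 19.4 (BRAF). BRAFp53 and BRAF responses differed by -0.71 in COL (SE 0.31, adjusted p = 0.239) and by -0.75 in SI (SE 0.33, adjusted p = 0.202), neither called, the latter being -0.88 (adjusted p = 0.131) without SI BRAF on replicate 1. Without SI BRAF on replicate 1 the log2 fold change in SI BRAF was 3.83 (adjusted p = 5.05e-07) and the BRAF responses of the tissues differed by 1.95 (adjusted p = 0.00285).

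Cx3cl1, or fractalkine, is the other membrane-bound chemokine and was at 26.3 to 43.3 CPM in all off libraries. SI BRAF raised it from 36.3 and 34.7 CPM to 80.2 and 102.9, a 2.5-fold rise (log2 fold change 1.32, SE 0.14, adjusted p = 1.84e-05, edgeR). SI BRAFp53 raised it from 37.2 and 34.4 to 50.3 and 61.9 CPM (log2 fold change 0.61, SE 0.14, adjusted p = 0.0141), a call that was lost without on replicate 2, off replicate 1 or off replicate 2 (adjusted p = 0.175, 0.0606 and 0.107). The on libraries were above the off libraries in both cultures. In COL BRAF, 29.4 and 26.3 CPM off became 45.6 and 35.8 on, which did not overlap and was not called by the main edgeR fit (log2 fold change 0.55, SE 0.19, adjusted p = 0.0656). DESeq2 called it (adjusted p = 0.0238). So did edgeR without a count filter (0.00876), with at least 10 counts in every library (0.0347) or in 1 fit of all 24 libraries (0.0351). COL BRAFp53 had 27.8 and 34.9 off and 42.1 and 35.4 on (adjusted p = 0.306), and on and off libraries overlapped in both p53 cultures.

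The SI response of Cx3cl1 was smaller in the BRAFp53 than in the BRAF culture, by -0.71 log2 units (SE 0.20, adjusted p = 0.0475, edgeR), where 8.20% of genes differed between the SI responses. It was larger in SI than in COL with BRAF, by 0.82 (SE 0.25, adjusted p = 0.0422). Both calls were close to the threshold, and both were lost by library totals (-0.45, adjusted p = 0.161, and 0.65, adjusted p = 0.0881), the tissue difference also by limma-voom (0.0501). The former was lost when SI BRAF on replicate 2, SI BRAF off replicate 1 or 2, SI BRAFp53 on replicate 1 or SI BRAFp53 off replicate 1 or 2 was left out (adjusted p = 0.148, 0.0867, 0.130, 0.168, 0.155 and 0.0754). The latter was lost without COL BRAF on replicate 2, COL BRAF off replicate 1 or 2, SI BRAF on replicate 2 or SI BRAF off replicate 1 or 2 (0.207, 0.134, 0.0594, 0.184, 0.0967 and 0.127). Without SI BRAF on replicate 1 both were kept, at -0.86 (adjusted p = 0.0124) and 0.98 (0.028).

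Ccl20, the Ccr6 ligand made above lymphoid follicles, rose in both SI cultures with BRAFV600E. SI BRAF went from 0.903 and 1.08 CPM to 3.72 and 5.71, a 4.53-fold rise (log2 fold change 2.18, SE 0.37, adjusted p = 0.000593, edgeR). SI BRAFp53 started higher, at 5.04 and 6.87 CPM, and reached 22.7 and 33.7, a 4.62-fold rise (log2 fold change 2.21, SE 0.33, adjusted p = 0.000663). The 2 folds differed by 0.03 log2 units (SE 0.53), and by -0.24 (adjusted p = 0.829) without SI BRAF on replicate 1, although all on libraries of SI BRAFp53 were above those of SI BRAF. SI p53 had 2.36 and 4.60 CPM off and 2.32 and 3.34 on, which overlapped. In COL BRAF, 0.631 and 0.592 CPM became 1.05 and 1.14 (log2 fold change 0.84, SE 0.33, adjusted p = 0.0949), in COL BRAFp53 1.29 and 2.02 became 1.89 and 2.19, and in COL p53 3.87 and 3.28 became 3.59 and 3.57.

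The Ccl20 response was larger in SI than in COL with BRAFp53, by 1.95 log2 units (SE 0.45, adjusted p = 0.0208, edgeR), and not called by edgeR with BRAF (1.39, SE 0.50, adjusted p = 0.0838, and 0.043 by DESeq2), nor without SI BRAF on replicate 1 (1.66, adjusted p = 0.0531). Without COL BRAFp53 on replicate 1, COL BRAFp53 off replicate 2, SI BRAFp53 on replicate 2 or SI BRAFp53 off replicate 1, the former call was lost (adjusted p = 0.0858, 0.107, 0.150 and 0.110).

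**Figure D4:**
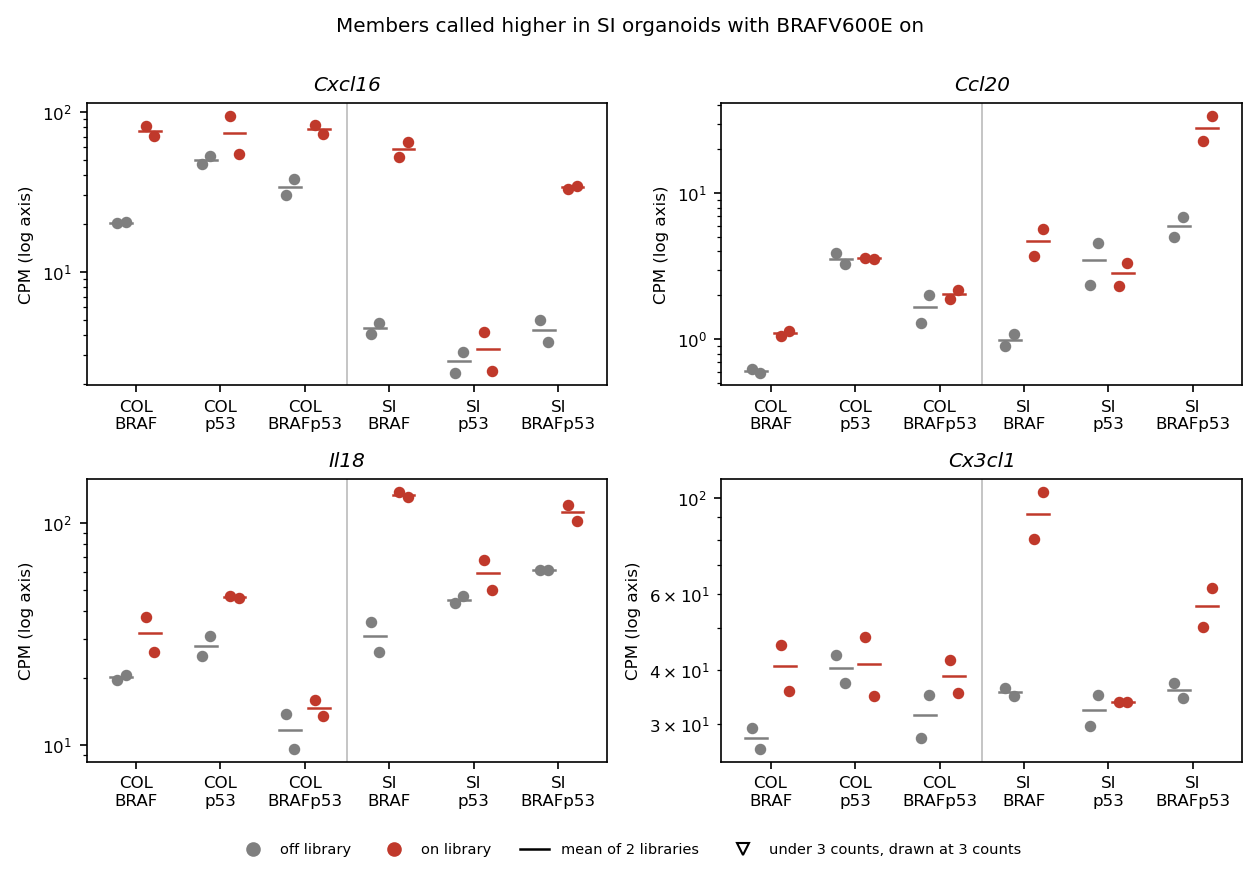
Levels of Cxcl16, Ccl20, Il18 and Cx3cl1 in each library (CPM, log axis) by culture, off in grey and on in red, with the mean of 2 libraries as a line. In SI BRAF and SI BRAFp53 the on libraries of all 4 genes stood above the off libraries, Cxcl16 at 33.1 to 65.0 CPM against 3.66 to 5.02.

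Ccl25 and Ccl28, the homeostatic chemokines, fell in COL organoids with BRAFV600E. Ccl25 fell from 165 and 166 CPM to 54.9 and 45.2 in COL BRAF, to 0.302 of its off level (log2 fold change -1.73, SE 0.19, adjusted p = 0.000127, edgeR). In COL BRAFp53 it fell from 48.7 and 46.1 to 17.4 and 14.8 CPM (log2 fold change -1.55, SE 0.19, adjusted p = 0.000316). On libraries were below off libraries in both. COL p53 had 30.1 and 23.7 CPM off and 12.2 and 18.9 on, also without overlap but not called by edgeR (log2 fold change -0.81, SE 0.19, adjusted p = 0.150); DESeq2 called it (adjusted p = 0.00568), and so did edgeR without COL p53 on replicate 2 (-1.15, adjusted p = 0.0446). In COL BRAF, Gata4 was at 42.0 and 49.4 CPM off and 34.0 and 32.1 on, and its part in the level of Ccl25 was not tested.

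In SI organoids Ccl25 lay between 869 and 1333 CPM in all libraries. It was at 1081 and 869 CPM off and 1179 and 1271 on in SI BRAF, where the on libraries were above but the change was not called (log2 fold change 0.29, SE 0.11, adjusted p = 0.0683, edgeR). Scaling decided the direction there: by library totals without TMM the log2 fold change was 0.00, slightly below 0, and by RLE size factors 0.32 (adjusted p = 0.0485). DESeq2 (0.0293) and limma-voom (0.0491) called it, as did edgeR without SI BRAF off replicate 1 (0.46, adjusted p = 0.0165), while without SI BRAF on replicate 1 the log2 fold change was 0.35 (adjusted p = 0.0576). In SI BRAFp53 it fell from 1222 and 1143 to 888 and 906 CPM (log2 fold change -0.44, SE 0.11, adjusted p = 0.0232), a call lost without on replicate 1, on replicate 2, off replicate 1 or off replicate 2 (adjusted p = 0.118, 0.106, 0.125 and 0.0698). SI p53 overlapped, at 1111 and 1333 off and 1272 and 1195 on.

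The tests of the differences were past the threshold for Ccl25 in 3 cases. The SI response was lower with BRAFp53 than with BRAF by -0.72 (SE 0.16, adjusted p = 0.0138, edgeR), which was lost by library totals (-0.47, adjusted p = 0.0514) and without SI BRAF off replicate 2, SI BRAFp53 on replicate 1 or SI BRAFp53 off replicate 1 (adjusted p = 0.0529, 0.0528 and 0.0608). SI exceeded COL in the BRAF response by 2.05 (SE 0.24, adjusted p = 2.14e-05) and in the BRAFp53 response by 1.16 (SE 0.24, adjusted p = 0.00983). The last was lost without SI BRAFp53 on replicate 2 (1.06, adjusted p = 0.0559). Without SI BRAF on replicate 1 the first was -0.75 (adjusted p = 0.0108) and the second 2.1 (5.96e-05).

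Ccl28 fell in COL BRAF from 49.8 and 46.3 CPM to 8.66 and 12.7, to 0.222 of its off level (log2 fold change -2.17, SE 0.21, adjusted p = 5.49e-05, edgeR). COL BRAFp53 fell from 30.9 and 26.0 to 6.36 and 9.49 CPM (log2 fold change -1.85, SE 0.21, adjusted p = 0.000195), and COL p53 had 47.0 and 40.7 off and 26.9 and 26.0 on (log2 fold change -0.75, SE 0.20, adjusted p = 0.220, and 0.0305 by DESeq2). No COL culture had overlapping on and off libraries. SI BRAF fell from 33.2 and 28.2 CPM to 18.1 and 8.92 (log2 fold change -1.22, SE 0.24, adjusted p = 0.00180). The higher of its on values belonged to replicate 1, and without it the log2 fold change was -1.82. Over all alternatives the log2 fold change in SI BRAF ranged from -1.82 to -0.78. SI BRAFp53 had 46.5 and 53.8 CPM off and 29.4 and 31.5 on, without overlap but not called by the main edgeR fit (log2 fold change -0.76, SE 0.23, adjusted p = 0.0530). DESeq2 (0.0101) and limma-voom (0.0125) called it. So did edgeR without a count filter (6.51e-05), with at least 10 counts in every library (0.0313) or by library totals (0.0449). SI p53 had 40.02 and 37.5 off and 36.5 and 40.3 on.

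With all libraries and its main count filter, edgeR called no difference between responses for Ccl28. The SI responses of BRAFp53 and BRAF differed by 0.46 (SE 0.33, adjusted p = 0.454, edgeR), and by 1.09 (adjusted p = 0.00617) without SI BRAF on replicate 1. SI and COL differed by 0.99 in BRAF (SE 0.34, adjusted p = 0.0745) and by 1.13 in BRAFp53 (SE 0.34, adjusted p = 0.0748). The former was called without COL BRAF on replicate 2 (1.28, adjusted p = 0.0478) or SI BRAF on replicate 2 (1.38, 0.00603), and the latter without COL BRAFp53 on replicate 2 (1.44, 0.0479). Without SI BRAF on replicate 1 the former was 0.38 (0.503). DESeq2 called both (0.0281 and 0.0255) and limma-voom the latter (0.0321). Both were also called by edgeR on all libraries with other count filters. Adjusted p was 0.00132 and 0.000655 without a filter on low counts, and 0.0468 and 0.0422 with at least 10 counts in every library.

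**Figure D5:**
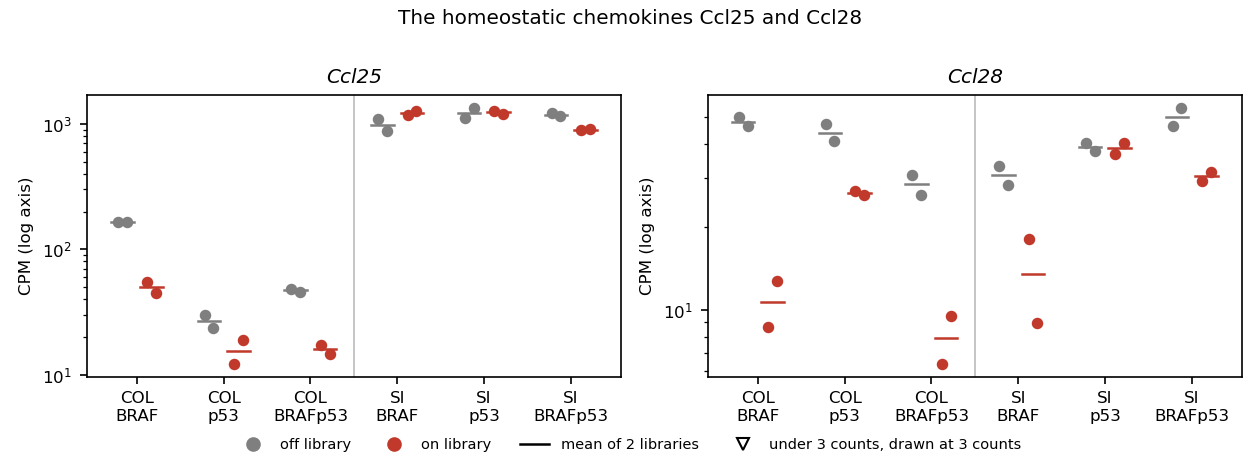
Levels of Ccl25 and Ccl28 in each library (CPM, log axis) by culture, off in grey and on in red, with the mean of 2 libraries as a line. Ccl25 fell from 165 and 166 CPM to 54.9 and 45.2 in COL BRAF and lay between 869 and 1333 CPM in all SI libraries, and Ccl28 was at 6.36 and 9.49 CPM in on libraries of COL BRAFp53 and at 8.66 and 12.7 in those of COL BRAF.

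Il18 rose most in SI BRAF, from 35.8 and 26.3 CPM to 137 and 131, a 4.2-fold rise (log2 fold change 2.07, SE 0.17, adjusted p = 1.39e-06, edgeR). In SI BRAFp53 it rose from 61.5 and 61.6 to 120.8 and 102.2 CPM (log2 fold change 0.82, SE 0.16, adjusted p = 0.00467), and in SI p53 43.4 and 46.9 CPM became 68.4 and 50.1 (log2 fold change 0.37, SE 0.16, adjusted p = 0.922). None of the 3 SI cultures overlapped. The SI response was smaller with BRAFp53 than with BRAF by -1.25 log2 units (SE 0.23, adjusted p = 0.00491), and by -1.19 (adjusted p = 0.00715) without SI BRAF on replicate 1. The off level of the SI BRAFp53 culture was above that of the SI BRAF culture.

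In COL BRAF, Il18 went from 19.7 and 20.7 CPM to 37.6 and 26.2 (log2 fold change 0.65, SE 0.20, adjusted p = 0.0411, edgeR). This call was lost without on replicate 1 (0.36, adjusted p = 0.36), off replicate 1 (0.60, 0.180) or off replicate 2 (0.70, 0.119), and by library totals (0.48, 0.111). COL p53 had 25.1 and 30.9 off and 46.9 and 45.8 on (log2 fold change 0.70, SE 0.20, adjusted p = 0.272, and 0.0351 by DESeq2), and COL BRAFp53 13.9 and 9.63 off and 15.9 and 13.4 on, which overlapped. The BRAF response was larger in SI than in COL by 1.45 (SE 0.28, adjusted p = 0.00210), and by 1.41 (0.00704) without SI BRAF on replicate 1. For p53 alone no member differed between the tissues by edgeR, where 0.117% of genes did and 3 members had an unadjusted p under 0.05 (Cxcl2, Ccl25 and Ccl28). Between the BRAFp53 and BRAF responses in COL, edgeR, DESeq2 and limma-voom called no member, with 0.907% of genes called by edgeR and an unadjusted p under 0.05 for 2 members, Cxcl5 (-2.44, SE 1.0) and Cxcl16.

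Receptors of the members were low throughout. Ccr6, the receptor of Ccl20, had 0 counts in all libraries, and Cxcr1, Cxcr2, Cxcr3 and Ccr3 passed 3 counts in at most 2 of 12 libraries of a tissue. Ccr9, the receptor of Ccl25, was at 0.0668 to 0.548 CPM in COL and at 0.162 to 1.53 in SI. Cxcr6 reached 0.401 CPM, Ccr10 0.327 and Cx3cr1 0.710. In COL the chains of the Il18 receptor were the highest, and in SI Ccr9 was, with Il18r1 at 0.235 to 3.43 CPM in COL and at most 0.469 in SI, and Il18rap up to 4.47 in COL and 0.209 in SI. Of the receptors tested, 1 was called in any of the 6 comparisons, Cx3cr1 in COL BRAFp53 (0.576 CPM off and 0.0123 on, adjusted p = 0.0207, edgeR), whose on libraries held 0 and 2 counts.

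The list of other chemokine genes held 27, of which 14 passed the count filter in COL and 5 did in SI. COL BRAF called 2 higher and 2 lower, COL BRAFp53 2 lower, SI BRAF 1 higher and 2 lower and SI BRAFp53 1 higher. Ccl5, a T cell attractant, rose in COL BRAF from 0.241 to 1.83 CPM (mean of 2; log2 fold change 2.91, SE 0.43, adjusted p = 0.000806, edgeR), and Cxcl11, another Cxcr3 ligand, from 0.132 to 1.57 (adjusted p = 0.0279). Ccl6 fell in COL BRAF (log2 fold change -1.77, adjusted p = 0.00427) and COL BRAFp53 (-1.43, 0.0118). Ccl9 fell in SI BRAF (-1.005, 0.0161) and rose in SI BRAFp53 (0.99, 0.0379).

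The list of other cytokine genes held 24, of which 20 were tested in COL and 13 in SI. As for the other lists, the shares of all genes called higher and lower were 10.3% and 9.61% in COL BRAF, 9.95% and 7.76% in COL BRAFp53, 17.5% and 14.2% in SI BRAF and 6.98% and 4.53% in SI BRAFp53. Of the cytokine genes, 6 rose and 2 fell in COL BRAF, 6 rose and 1 fell in COL BRAFp53, 5 rose and 1 fell in SI BRAF and 3 rose and 1 fell in SI BRAFp53. Il1rn, which encodes the interleukin-1 receptor antagonist, rose in all 4, from 167 to 1002 CPM in COL BRAF, 306 to 1282 in COL BRAFp53, 6.18 to 75.8 in SI BRAF and 2.23 to 12.6 in SI BRAFp53, with adjusted p between 6.33e-07 and 5.28e-05 (edgeR). Tnfsf10, the death ligand TRAIL, fell in all 4, with log2 fold changes of -2.95, -4.03, -2.46 and -3.05 in the same order. Tnfsf15 rose in COL BRAF, COL BRAFp53 and SI BRAF, and Lif in COL BRAFp53 from 4.74 to 21.1 CPM.

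Inflammasome and Il18-processing genes moved both ways, with 6 of 14 tested higher and 5 lower in COL BRAF, 2 and 5 in COL BRAFp53, and of 13 tested in SI 4 and 2 in BRAF and 2 and 2 in BRAFp53. Gsdmd, the pore-forming gasdermin through which mature Il18 can leave cells, rose in SI BRAF from 53.5 to 536 CPM (log2 fold change 3.28, SE 0.18, adjusted p = 7.75e-08, edgeR), in SI BRAFp53 from 85.0 to 244 and in COL BRAFp53 from 35.8 to 100.2. Pycard, the inflammasome adaptor, fell in COL BRAF (-1.25), SI BRAF (-0.54) and SI BRAFp53 (-0.60). Nlrp6, an epithelial inflammasome sensor, fell in COL BRAF (-1.30, adjusted p = 2.89e-05) and COL BRAFp53 (-1.47, adjusted p = 2.80e-05) and rose in SI BRAF (0.40, adjusted p = 0.0144). Casp1, which cleaves the Il18 precursor, fell in SI BRAF from 120 to 96.4 CPM (-0.35, adjusted p = 0.0455) and in SI BRAFp53 from 128 to 90.0 (-0.55, adjusted p = 0.0121).

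NF-kB factors and feedback genes were called higher more often than lower. Of 18 tested in COL, 9 rose and 1 fell in BRAF and 7 rose in BRAFp53, and of 17 in SI, 6 rose and 1 fell in BRAF and 4 rose in BRAFp53. The median log2 fold changes were 0.53, 0.30, 0.34 and 0.17, against -0.01, -0.04, -0.06 and -0.03 over all genes. Bcl3, a nuclear partner of NF-kB, rose in all 4 (log2 fold changes 1.65, 0.93, 0.56 and 0.73), and Tnfaip2 in COL BRAF (1.91) and COL BRAFp53 (2.03). Sheddases and mRNA decay genes gave 2 higher and 2 lower of 10 in COL BRAF, 1 and 1 in COL BRAFp53, 2 and 3 of 9 in SI BRAF and 1 higher in SI BRAFp53. Zfp36, whose product destabilises chemokine mRNAs, rose in all 4 (0.75, 1.10, 1.27 and 0.74, adjusted p from 3.69e-05 to 0.0126, edgeR).

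Interferon response genes rose in both BRAF cultures, 6 of 18 in COL and 9 of 17 in SI, with none lower. In SI BRAFp53, 5 rose and none fell, and in COL BRAFp53 1 rose and 2 fell. Irf7, a factor of the interferon response, rose in all 4 with log2 fold changes of 2.24, 0.78, 2.37 and 0.76. In COL BRAFp53, where Cxcl10 rose, Ifit2 fell (-3.25, SE 0.62, adjusted p = 0.00402, edgeR). Of toll-like and cytokine receptors, 4 of 22 rose and 1 fell in COL BRAF, 3 rose and 2 fell in COL BRAFp53, 7 of 20 rose and 4 fell in SI BRAF and 1 fell in SI BRAFp53. Tnfrsf1b rose in COL BRAF (1.53) and COL BRAFp53 (1.30), Ifngr1 in SI BRAF (1.07), and Il1rap fell in all 4 (-0.85, -1.03, -1.51 and -1.39).

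Without SI BRAF on replicate 1, 40 of the 41 genes that the naming rule picked from all lists in SI BRAF were still called with the same sign, the exception being Xist, and Casp1 was not (-0.40, adjusted p = 0.0536, edgeR). Over the lists, the median log2 fold change was then -1.49 for other chemokine genes, against -1.41 with all libraries. For toll-like and cytokine receptors it was 0.075 against 0.163, and for interferon response genes 0.907 against 1.15.

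For p53 alone, edgeR called none of the genes of these lists in either tissue. Of the markers of immune cells, 4 of 12 passed the count filter in COL and 3 did in SI, and Itgam, Csf1r and Cd68 gave 88.3% to 100% of their sum. Csf1r and Itgam were called higher in both SI cultures with BRAFV600E (log2 fold changes 2.79 and 1.57 in BRAF, 3.15 and 0.99 in BRAFp53), and Cd68 in COL BRAF (0.93) and COL BRAFp53 (1.87). The pan-leukocyte marker Ptprc was at 0.401 CPM or less in SI and at 0.228 to 1.48 in COL libraries, and stromal markers summed to 0.885 to 4.13 CPM, with none called. In COL BRAF the immune marker sum was 6.92 to 8.60 CPM off and 9.09 to 10.5 on, and in COL BRAFp53 6.42 to 6.83 off and 12.3 to 13.1 on. Epithelial markers rose as well, 6 of 7 in COL BRAF, COL BRAFp53 and SI BRAF and 4 of 7 in SI BRAFp53. These sums, like those in SI, moved with the groups in which Cxcl16 rose, and their part in its change was not tested.

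For the 4 members called in at least 3 of the 6 on against off comparisons, the genes with the nearest set of 6 log2 fold changes were sought among 16226 genes by root mean square difference. Nearest to Cxcl16 were Rab31 (0.23), Cldn4 (0.30) and Capn2 (0.30). Nearest to Ccl25 were Gstt1 (0.18), Mgst1 (0.20) and Aldh1a7 (0.22), and nearest to Ccl28 were Ripor2 (0.19) and Nhs (0.20). Il18 had Rpph1 (0.23), A930001C03Rik (0.30) and Gm11496 (0.30). When SI BRAF on replicate 1 was left out, Capn2, Aldh1a7, Ripor2 and Gm11496 were no longer among the 3 nearest. These are likenesses over 6 comparisons that share libraries and scaling, and the values describe these libraries alone.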

How the data were processed

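Total RNA of 24 organoid libraries was sequenced as paired ends, and the authors trimmed reads with Trimmomatic 0.36 and aligned them to mm10 with STAR 2.5.2b. Raw read counts per Ensembl gene were deposited in 1 table per tissue. The submitters' notes also list mm9; which annotation release was used, and whether strand was, is not given in the sources used here. Of 45706 identifiers, 45143 were matched to GENCODE M21.

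Counts were tested with edgeR 4.0.16 in R 4.3.3 (TMM, filterByExpr with a minimum of 10, quasi-likelihood, Benjamini-Hochberg adjusted p under 0.05) in 1 fit per tissue of 12 libraries; the study's methods used limma. Differences between responses were interaction contrasts, in 1 fit of 24 libraries between tissues. Off organoids were compared on summed libraries, 3 cultures against 3. The 2 libraries of a group differed beyond sampling noise. Alternatives were DESeq2 1.42.0, limma-voom (limma 3.58.1), RLE factors, other count filters, a fold requirement, blocks, leaving out each library and, chosen after seeing the data, library totals in place of TMM and, for the lists, leaving out SI BRAF on replicate 1. The code was tested on simulated data. The members and lists were chosen with earlier results of these data known. All members are named, and of each other list up to 5 called genes of at least 1 CPM with the largest changes per comparison, all receptors and the 3 nearest genes of a member called in 3 or more comparisons; Casp1 in SI BRAF was named after its value was seen. A few genes that this rule would name are not reported here.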

Additional observations from a re-analysis of the deposited data

Results flagged for a closer look

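The results here are differences between responses that passed the edgeR test of the difference itself. All values are differences of log2 fold changes. With BRAFp53 against BRAF in SI organoids they were -0.72 for Ccl25, -0.71 for Cx3cl1 and -1.25 for Il18. Cultures of different genotypes came from different donor mice, here also of different sex by Xist and Uty and, for SI BRAF, with Onecut2 at 6.09 to 22.9 CPM against 139 to 209 in SI BRAFp53, so the added allele, the sex and the culture cannot be told apart.

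Between SI and COL organoids, the BRAF response differed by 1.81 for Cxcl16, 2.05 for Ccl25, 0.82 for Cx3cl1 and 1.45 for Il18. The BRAFp53 response differed by 1.77 for Cxcl16, 1.95 for Ccl20 and 1.16 for Ccl25. Dose, medium and day of RNA isolation, and for BRAFp53 the sex of the cells, changed with the tissue and cannot be told apart from it. Both BRAF cultures also stood apart from the others of their tissue, COL BRAF with Gata4 at 32.1 to 49.4 CPM and SI BRAF with Onecut2 at 6.09 to 22.9. The part of this in the BRAF differences was not tested. Ccl25 and Cxcl16 had opposite off levels, Ccl25 at 975 to 1222 CPM in SI and 26.9 to 165 in COL cultures and Cxcl16 at 2.75 to 4.44 in SI and 20.3 to 50.1 in COL.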

How the results depend on the processing

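Across all alternatives, 1375 values of single members kept their direction and side of the threshold, 52 passed it newly and 79 no longer passed it. Another 74 values, of 27 results that were not called, changed sign, and none of them was called. The calls of Cxcl16, Ccl25 and Ccl28 in COL BRAF and COL BRAFp53, of Cxcl16, Ccl20, Cx3cl1, Il18 and Ccl28 in SI BRAF and of Cxcl16, Ccl20 and Il18 in SI BRAFp53 were kept under each alternative except a required log2 change of 1, which removed Il18 in SI BRAFp53. Without a filter on low counts, 5 members were called in COL p53, 2 between the COL responses, and 7, 1 and 5 between the SI and COL responses of BRAF, p53 and BRAFp53, where 1.87%, 4.31%, 8.12%, 1.54% and 4.87% of all genes were. DESeq2 called 3 in COL p53 (2.13% of genes). A log2 change of at least 1 left 2 in SI BRAFp53 (4.92% of genes) and 1 between the SI responses (4.24%), and library totals, tried after seeing the data, left 1 of the latter (10%). One fit of 24 libraries called 1 in COL p53 (0.503% of genes) and 3 in COL BRAFp53 (17.6%). The causes were not tested.

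Leaving out 1 library left 1 library in its group. The shares of all genes called in such fits are not given, so their numbers of called members are not compared. Leaving out 1 culture of off organoids at a time kept the calls of Ccl25, Cxcl16 and Cxcl2. Those of Cxcl1, Cxcl5 and Cxcl10 were lost in some of these fits. Counts of Cxcl1, Cxcl2, Cxcl5 and Cxcl10 in SI were 0 to 40 a library.

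Replicate numbers did not pair the samples: on and off deviations of the same number correlated at -0.07 to 0.0887 over 19673 genes in the 6 cultures. With the replicate block, 7, 0 and 6 members were called in COL BRAF, p53 and BRAFp53 and 5, 0 and 6 in SI, against 17%, 0.0791%, 14%, 29.7%, 0% and 9.83% of all genes. Ccl28 in SI BRAFp53 (adjusted p = 0.0303, edgeR) and the tissue difference of Ccl20 in BRAF (0.0311) were called with it, and both calls of Cx3cl1 differences were not (0.0790 and 0.0519). For off organoids, a block for genotype left 4 called members (19.5% of genes), without Cxcl1 (0.0807) and Cxcl5 (0.0721).

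Values that changed sign (log2) were as follows. For Ccl25 in SI p53 they were 0.0017 by RLE size factors, 0.0043 without a count filter, 0.0016 by DESeq2 and 0.013 in 1 fit of 24 libraries, and for Ccl25 in SI BRAF -0.0035 by library totals. Ccl20 in COL p53 gave 0.00050 with at least 10 counts in every library and 0.0021 in 1 fit, and between the SI responses -0.00074 by DESeq2. Cx3cl1 in COL p53 gave -0.0091 by limma-voom and -0.0061 with the replicate block. Between the COL responses Cxcl1 gave 0.40 by limma-voom and 0.34 with the replicate block, and Cxcl10 -0.0012 by limma-voom. Cxcl1 in SI p53 gave -0.010 with the replicate block. Between the BRAFp53 responses of the tissues Cxcl2 gave -0.017 by RLE and -0.031 without a filter. By library totals Cxcl5 gave -0.022 in COL BRAFp53 and 0.020 between the BRAFp53 responses of the tissues, Cxcl1 0.16 between the SI responses and Cx3cl1 -0.21 between off organoids.

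Leaving out 1 library, ranges that crossed 0 were, between the COL responses, -0.82 to 1.81 for Cxcl1 and -0.57 to 0.83 for Cxcl10, and between the SI responses -1.83 to 1.67 for Cxcl1 and -0.30 to 0.35 for Ccl20. In COL p53 they were -0.14 to 0.11 for Ccl20 and -0.25 to 0.23 for Cx3cl1, in COL BRAFp53 -0.34 to 0.86 for Cxcl5, and in SI BRAF -2.38 to 1.10 for Cxcl1 and -5.85 to 0.98 for Cxcl10. In SI p53 they were -1.10 to 0.83 for Cxcl1, -3.67 to 3.55 for Cxcl10, -0.20 to 0.58 for Cxcl16, -0.70 to 0.22 for Ccl20, -0.11 to 0.11 for Ccl25, -0.11 to 0.048 for Ccl28 and -0.054 to 0.15 for Cx3cl1. Between the p53 responses of the tissues they were -0.53 to 4.79 for Cxcl2, -4.08 to 3.36 for Cxcl10, -0.75 to 0.15 for Cxcl16, -0.69 to 0.25 for Ccl20 and -0.18 to 0.28 for Cx3cl1, and between the BRAFp53 responses -0.96 to 3.36 for Cxcl2, -0.84 to 0.36 for Cxcl5 and -1.94 to 1.08 for Cxcl10. Leaving out 1 culture of off organoids gave -0.24 to 0.12 for Ccl28 and -0.072 to 0.23 for Cx3cl1.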

Other observations

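Of 6 small intestinal identity genes, 1 rose in COL BRAF, 0 were called in COL BRAFp53, 1 rose and 2 fell in SI BRAF, and 1 rose and 1 fell in SI BRAFp53. Of the colonic list, 1 of 5 tested rose in each COL culture with BRAFV600E and 0 of 2 were called in SI. In SI BRAF, the Paneth cell genes Lyz1 and Defa24 fell by 1.58 and 1.26 on the log2 scale, from 145 to 50.0 and from 193 to 82.9 CPM (edgeR adjusted p = 0.000115 and 9.25e-05), while Lct rose from 63.8 to 120 (0.87, adjusted p = 0.000699). In SI BRAFp53 Lyz1 was not called (84.6 to 65.8 CPM, -0.40, adjusted p = 0.265), while Defa24 rose from 64.9 to 166 CPM (1.31, adjusted p = 0.000213) and Lct fell from 19.3 to 3.71 (-2.43, adjusted p = 2.07e-06). Car1 rose in COL BRAF from 1337 to 4046 CPM (1.59, adjusted p = 0.00161) and in COL BRAFp53 from 3893 to 7459 (0.94, adjusted p = 0.0287). Onecut2, an intestinal transcription factor, rose in COL BRAF from 38.8 to 78.5 CPM (1.01, adjusted p = 0.000945).

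With SI BRAF on replicate 1 left out, the SI BRAF changes of Lyz1, Defa24 and Lct were -1.85, -1.26 and 0.94. The median log2 fold changes of the small intestinal and colonic lists were then -0.639 and -0.469, against -0.105 and -0.171 with all libraries. Onecut2 was at 15.9 and 18.2 CPM in SI BRAF off and at 22.9 and 6.09 in on replicates 1 and 2.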
